A study of Mus musculus with 33 samples.

Results

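The circadian clock genes described here are 10 of the 23366 genes counted in frontal cortex RNA-Seq libraries of mouse offspring, and were chosen by their gene symbols: Arntl, Clock, Per1, Per2, Per3, Cry1, Nr1d1, Nr1d2, Dbp and Tef. All 10 were present in both count tables, 1 table for each sex, and all 10 passed the filter on low counts in both. Their levels were compared between treatment groups within each table as a check on the time of day at which brains were collected, since transcripts of these genes rise and fall over the day. The hour of collection is not among the labels or methods used here. Treatment and hour of collection therefore cannot be told apart in these data.

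All offspring were C57BL/6 mice, about 1 month old at collection, whose dams had breathed the treatment by whole-body inhalation during gestation and who then breathed it with their dams during lactation. The groups were filtered air (6 female and 6 male libraries), e-cigarette aerosol from liquid with nicotine at 13 to 16 mg/mL (5 female and 6 male) and e-cigarette aerosol from liquid without nicotine (5 female and 5 male). Exposure ended some days before collection, the air group was handled and deprived of food during exposure hours as the others were, and each offspring of the study came from a litter of its own. Each sex had a sequencing run of its own, so sex and run cannot be told apart and levels were not compared between the tables.

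In the mammalian clock, CLOCK and BMAL1 (the protein of Arntl) pair up and switch on genes that carry E-box elements, among them the Period and Cryptochrome genes, whose proteins later block the pair. The same pair drives the nuclear receptors REV-ERB alpha and beta (Nr1d1 and Nr1d2), which shut down Arntl through a response element of their own, and the output factors DBP and TEF, which act on D-box elements. In cortex, as in most tissues of a nocturnal rodent, Arntl transcripts run opposite in phase to those of Dbp, Nr1d1 and the Period genes.

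Libraries held 19150562 to 27513174 counts in females and 17845672 to 24787955 in males. The lowest count of any member in any library was 345 reads, for Cry1. The library labelled male nicotine replicate 21 held 4632 reads of Xist and 1 read of Y-linked genes, whereas the other 16 male libraries held 1 to 5 and 2140 to 3247, so its sex-linked transcripts went against its label. With it or without it, 0 members passed edgeR's test in males with nicotine against air, and the values of the members without it follow below. Of the cortical marker list, summed levels ran from 1130 to 3915 CPM (reads of a gene as a share of its library, scaled with TMM factors) over all libraries, with Slc17a7 at 15055 or more reads in each, while of 7 markers of the suprachiasmatic nucleus of the hypothalamus, Nms, Six6 and Lhx1 stood at 0 to 15 reads, Avp at 1 to 174, Prok2 at 22 to 126, Rgs16 at 115 to 233 and Vip, which cortical interneurons express too, at 237 to 888.

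On a scale of CPM per kilobase of exon, on which genes can be compared, levels in air spread widely. Nr1d1 stood at 77.3 ± 6.80 (SD, n = 6) in females and 79.5 ± 2.42 in males, and Tef at 67.8 ± 4.09 and 65.8 ± 3.91. Dbp and Per1 formed the next step, with Dbp at 18.04 ± 3.26 in females and 16.8 ± 2.57 in males and Per1 at 15.3 ± 3.23 and 15.2 ± 2.29. Clock followed at 11.4 ± 0.793 and 11.9 ± 0.519, Arntl at 10.6 ± 1.83 and 11.005 ± 1.52, Nr1d2 at 9.06 ± 0.645 and 8.43 ± 0.950, and Cry1 at 7.83 ± 0.945 and 7.91 ± 0.409. Per2, at 3.94 ± 0.798 and 4.43 ± 1.27, and Per3, at 2.20 ± 0.163 and 2.51 ± 0.222, were lowest. The spreads of Dbp and Per1 overlapped, as did those of Clock and Arntl, whereas Nr1d1 did not overlap with Dbp in any air library. Taken per length of the longest transcript, Tef (121 in females and 118 in males) stood above Nr1d1 (88.8 and 91.3), so that the order of the highest pair rests on the gene model. On that scale Dbp stood at 29.7 and 27.6 and Per1 at 18.5 and 18.3, so that their overlap rests on the gene model too.

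Between air libraries of the same group, Per2 and Per1 varied most among females (coefficients of variation of 20.2 and 21.1%) and Per2 among males (28.7%). Clock and Tef varied little, with coefficients of variation of 6.95 and 6.04% in females and 4.34 and 5.95% in males.

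In the mm9 annotation, exons of 3 members overlap a gene on the opposite strand. These are Dbp on chromosome 7 (52960458 to 52965525), which shares 491 exon bases (16.7%) with Sphk2, Nr1d1 on chromosome 11 (98629246 to 98636647), which shares 263 bases (8.42%) with Thra, and Tef on chromosome 15 (81632851 to 81657291), which shares 193 bases (2.45%) with Gm17597. Counting by strand is not stated, so reads from these stretches cannot be assigned to 1 of the partners, and the levels of Dbp, Nr1d1 and Tef carry that uncertainty. The remaining members lie free of other genes' exons, Arntl on chromosome 7 (120350979 to 120457636), Clock on 5 (76639992 to 76733817), Per1 on 11 (68908719 to 68923462), Per2 on 1 (93312561 to 93355907), Per3 on 4 (150377761 to 150418774), Cry1 on 10 (84594447 to 84647799) and Nr1d2 on 14 (19036568 to 19071641).

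The control elements of the clock can be read in the promoters of several members. RefSeq promoter windows (GRCm38.p6, 250 bases before to 50 after a start) were matched for 9 of the 10 members, 14 windows in all, and searched on both strands for the E-box CACGTG, the related CACGTT, the D-box TTANGTAA and the core TAGGTCA of the REV-ERB and ROR element. The E-box stood in 4 of the 14 windows, 1 of Per1, 1 of Cry1 and both of Tef, against 7.15% of 32851 windows of that length over all genes. CACGTT was found in the Cry1 and Nr1d1 windows (4.68% of all windows), the D-box in the Per3 window (2.32%) and TAGGTCA in 1 Arntl window (2.61%). The windows of Clock, Dbp and Nr1d2 held none of these letters, which says nothing of elements elsewhere in those genes. The stretches below are shown because they carry the elements of the positive and negative limbs, with the Dbp stretch beside them as the member with the largest rise. They run 5′ to 3′ on the gene's strand, with matches in capitals, and are the 250 bases before the start except for Arntl, where 30 bases around the element at positions 31 to 37 after the start are given (chr7:113207529-113207558, plus strand). The others lie at chr11:69098699-69098948, plus strand (Per1), chr10:85185055-85185304, minus strand (Cry1, where AACGTG is CACGTT read on the other strand), chr4:151044666-151044915, minus strand (Per3) and chr7:45704997-45705246, plus strand (Dbp).
Arntl: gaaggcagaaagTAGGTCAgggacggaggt
Per1: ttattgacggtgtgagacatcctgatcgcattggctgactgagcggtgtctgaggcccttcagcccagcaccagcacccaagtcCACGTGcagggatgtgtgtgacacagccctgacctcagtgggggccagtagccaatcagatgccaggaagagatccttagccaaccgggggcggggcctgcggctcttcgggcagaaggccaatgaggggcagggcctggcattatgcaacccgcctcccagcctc
Cry1: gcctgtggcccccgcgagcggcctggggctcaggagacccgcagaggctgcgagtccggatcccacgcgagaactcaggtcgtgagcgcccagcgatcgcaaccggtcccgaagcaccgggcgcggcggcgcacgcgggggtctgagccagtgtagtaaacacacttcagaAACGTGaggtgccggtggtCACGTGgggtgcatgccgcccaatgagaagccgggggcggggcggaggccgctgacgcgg
Per3: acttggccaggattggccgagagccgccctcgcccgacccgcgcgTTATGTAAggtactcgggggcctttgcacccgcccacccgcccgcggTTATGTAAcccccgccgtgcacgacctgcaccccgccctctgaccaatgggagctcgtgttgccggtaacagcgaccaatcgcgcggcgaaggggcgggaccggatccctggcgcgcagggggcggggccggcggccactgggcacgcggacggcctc
Dbp: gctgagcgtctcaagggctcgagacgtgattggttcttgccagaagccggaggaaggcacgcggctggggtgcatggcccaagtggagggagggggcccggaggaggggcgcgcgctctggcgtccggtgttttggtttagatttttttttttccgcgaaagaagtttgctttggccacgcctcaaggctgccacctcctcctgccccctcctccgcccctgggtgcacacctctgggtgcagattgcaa

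Of the 10 members, 4 passed an adjusted p of 0.01 in males exposed without nicotine (edgeR's quasi-likelihood test, Benjamini-Hochberg adjustment over all 15293 genes tested), where 13.6% of all genes did. Arntl and Clock were lower and Dbp and Nr1d2 higher than in air. In females exposed without nicotine 1 member, Clock, passed, and it was lower, where 12.1% of all genes passed. No member passed in females exposed with nicotine, where 4.29% of all genes did, nor in males exposed with nicotine, where the share of all genes was 0%. At an unadjusted p under 0.05, 1 member passed with nicotine and 3 without in females (28.1 and 36.4% of all genes), and in males 7 passed in each exposed group (14.4 and 36%). DESeq2 called 1 member in females with nicotine (8.7% of all genes), 2 without (17.1%), 1 in males with nicotine (1.04%) and 5 without (17.2%). The 1 of 10 in females without nicotine is near the background share. All 4 comparisons with air use the air libraries of their sex, so those of 1 sex are not independent of each other. The median log2 change over the members was 0.01 and -0.04 in females with and without nicotine and -0.0056 and 0.17 in males, beside 0.0041, 0.0092, 0.0065 and 0.016 over all genes tested.

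**Figure D1:**
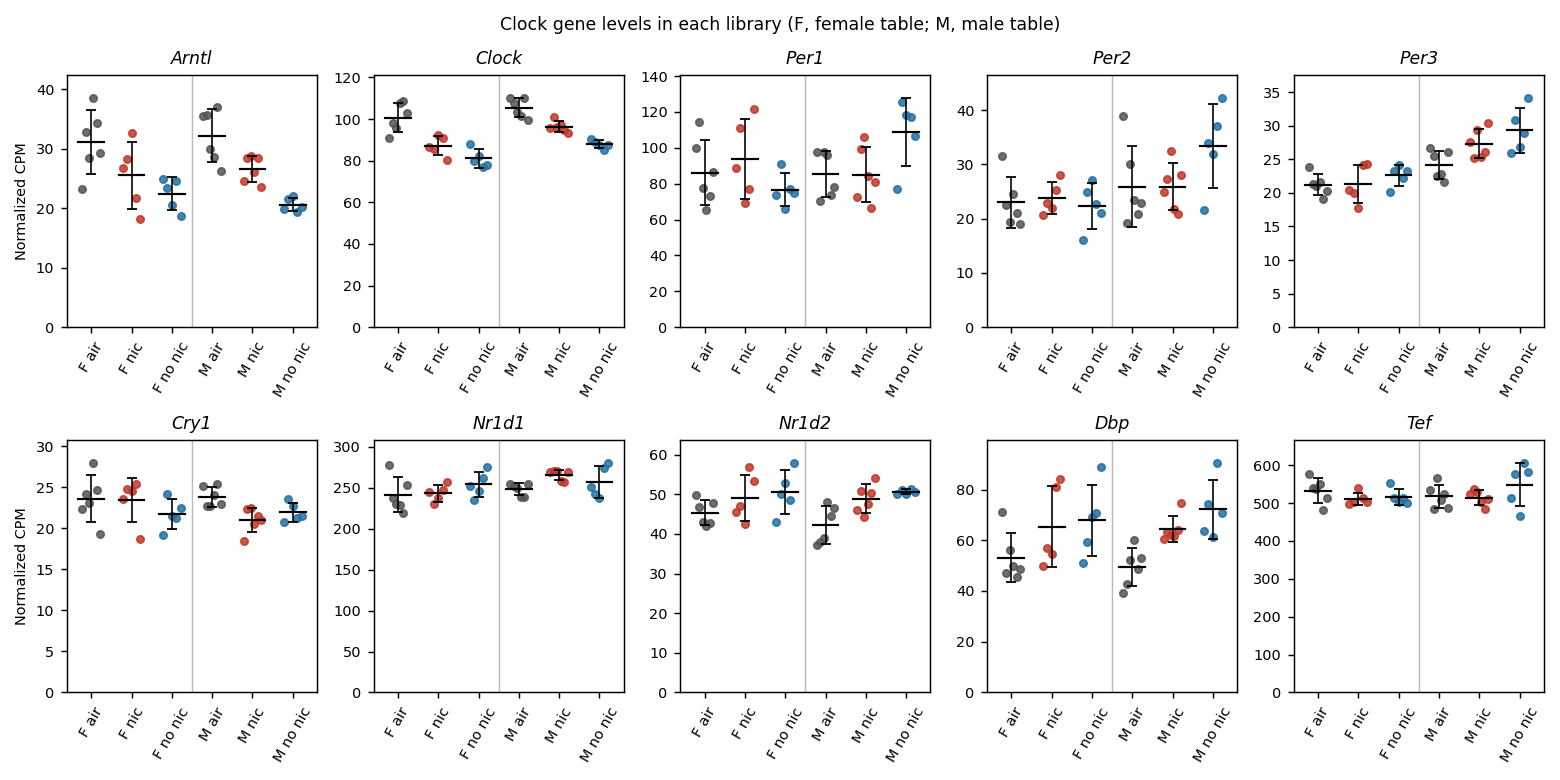
Normalized CPM of each member (y axis, from 0) in each library (points), by treatment in the female (F) and male (M) tables, with group means (long bars) and SDs (error bars). Arntl of the 5 male libraries exposed without nicotine lies at 19.3 to 22.02, below the 26.3 to 37.1 of the male air libraries, and Nr1d2 of the same 5 lies at 49.96 to 51.4, above all air libraries.

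Both genes of the positive limb fell in males exposed without nicotine. Arntl, which encodes BMAL1, stood at 26.3, 32.7 and 37.1 CPM (lowest, median and highest) in male air libraries and at 19.9, 21.6, 22.02, 19.3 and 20.3 CPM in the 5 male libraries without nicotine. The 2 groups did not overlap, with every exposed library below the lowest air library. The mean was 20.6 ± 1.14 against 32.2 ± 4.44 CPM, a fold of 0.640 (log2 change -0.64, SE 0.0836, edgeR adjusted p = 4.3e-05, exact two-sided permutation p = 0.00433, the smallest that 6 and 5 libraries allow). Males exposed with nicotine lay between, at 23.6, 27.2 and 28.7 CPM, and overlapped with the lower air libraries (log2 change -0.28, SE 0.0785, edgeR adjusted p = 0.111). Without the library whose sex-linked transcripts went against its label, that change was -0.30 (edgeR adjusted p = 0.155).

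Female Arntl took the same order of group means without passing the threshold. Air libraries ran from 23.3 through a median of 31.02 to 38.6 CPM, libraries with nicotine stood at 26.8, 28.3, 32.7, 21.8 and 18.2 CPM, and those without nicotine at 25.0, 23.5, 20.5, 24.6 and 18.6 CPM. All groups overlapped, and the overlap of air with no nicotine came from a single air library, replicate 1, at 23.3 CPM. The log2 change was -0.29 (SE 0.140, edgeR adjusted p = 0.188) with nicotine and -0.47 (SE 0.140, edgeR adjusted p = 0.0208, exact permutation p = 0.0173) without. Leaving out air replicate 1 gave -0.55 without nicotine (edgeR adjusted p = 0.0072), which passes, and so did leaving out nicotine replicate 6 (-0.48, edgeR adjusted p = 0.0093). These cases are named because they pass. The change with nicotine ran from -0.39 without nicotine replicate 3 (edgeR adjusted p = 0.0626) to -0.18 without nicotine replicate 6 (edgeR adjusted p = 0.416).

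Clock, the partner of BMAL1, fell in both sexes without nicotine. In males it stood at 99.7, 105.5 and 110.4 CPM in air and at 90.6, 88.9, 87.7, 85.2 and 87.7 CPM without nicotine. These groups did not overlap (mean 88.0 ± 1.98 against 105.4 ± 4.58 CPM, log2 change -0.26, SE 0.0340, edgeR adjusted p = 4.4e-05, exact permutation p = 0.00433). Females showed a like picture, with 91.1, 100.6 and 108.6 CPM in air and 88.2, 79.9, 82.3, 76.8 and 78.1 CPM without nicotine, again with no overlap (81.1 ± 4.49 against 100.7 ± 7.003 CPM, log2 change -0.31, SE 0.0523, edgeR adjusted p = 0.00099, exact permutation p = 0.00433). With nicotine, female Clock stood at 86.8, 85.6, 92.6, 90.7 and 80.6 CPM, with the highest of these above the lowest air library (log2 change -0.21, SE 0.0522, edgeR adjusted p = 0.0157). That adjusted p was 0.0080 without air replicate 1 and 0.0099 without the first library of the no nicotine group, both past the threshold. It was highest, at 0.0485, without nicotine replicate 6. Male Clock with nicotine, at 93.3, 95.8 and 101.0 CPM, overlapped with air at its highest library (log2 change -0.13, SE 0.0323, edgeR adjusted p = 0.0796, and 0.144 without replicate 21).

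Dbp, the output factor whose transcript is known for a deep daily rhythm, went the other way. Male air libraries stood at 39.1, 50.5 and 60.02 CPM, libraries without nicotine at 63.5, 74.3, 61.5, 90.5 and 70.9 CPM, and libraries with nicotine at 60.5, 62.7 and 74.5 CPM. Every exposed male library lay above every air library, by a narrow gap at the edge. Without nicotine the mean was 72.1 ± 11.5 against 49.4 ± 7.56 CPM, a 1.46-fold rise (log2 change 0.55, SE 0.104, edgeR adjusted p = 0.00088, exact permutation p = 0.00433). With nicotine it was 64.4 ± 5.14 CPM (log2 change 0.39, SE 0.0997), which missed the threshold (edgeR adjusted p = 0.0885, and 0.145 without replicate 21), while the exact permutation p was 0.00216, the smallest that 6 and 6 libraries allow and not adjusted over genes.

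In females, Dbp overlapped in all groups. Air libraries stood at 45.7, 49.4 and 71.3 CPM, libraries with nicotine at 49.98, 57.0, 54.5, 81.0 and 84.3 CPM and libraries without nicotine at 51.0, 59.4, 69.1, 70.9 and 88.7 CPM. The highest air value belonged to replicate 1, the library with the lowest Arntl of its group. The log2 change was 0.30 (SE 0.159, edgeR adjusted p = 0.226) with and 0.35 (SE 0.158, edgeR adjusted p = 0.115) without nicotine, and 0.41 and 0.45 (edgeR adjusted p = 0.0860 and 0.0386) without air replicate 1. Only nicotine replicates 5 and 6 and no nicotine replicate 5 lay above the highest air library, so both rises lean on few libraries.

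Tef, a relative of Dbp, did not pass in any comparison. Its log2 change against air lay between -0.06 and 0.08 in the 4 comparisons, with SEs of 0.0456 to 0.0598, on a level of 465.4 to 605.4 CPM over all libraries. In males with nicotine the change was -0.0086, and 0.0086 without replicate 21. The widest group was that of males without nicotine, at 513.1, 576.7, 465.4, 605.4 and 581.7 CPM, which reached past both ends of the male air range of 485.5 to 565.5 CPM.

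Of the REV-ERB receptors, Nr1d2 rose in males without nicotine and Nr1d1 did not pass. Male Nr1d2 stood at 37.1, 41.8 and 48.0 CPM in air and at 50.02, 51.1, 49.96, 51.4 and 50.7 CPM without nicotine. The exposed libraries lay together above all air libraries (50.6 ± 0.658 against 42.2 ± 4.76 CPM, 1.201-fold, log2 change 0.26, SE 0.0666, edgeR adjusted p = 0.0072, exact permutation p = 0.00433). This was the weakest of the 4 male calls: the adjusted p rose to between 0.0123 and 0.0202 when any 1 of the 5 no nicotine libraries or air replicates 30, 31 or 33 was left out, and to 0.0113 when the fit held only the groups compared. With nicotine, male Nr1d2 at 44.1, 49.0 and 54.2 CPM overlapped with air (log2 change 0.21, edgeR adjusted p = 0.128, and 0.20 with adjusted p = 0.208 without replicate 21). Female Nr1d2 changes were 0.11 and 0.16 with and without nicotine (edgeR adjusted p = 0.383 and 0.171).

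Nr1d1, the receptor gene with the higher level per kilobase of exon in air, stood at 238.8, 251.1 and 255.2 CPM in male air libraries and at 257.4, 269.4 and 270.4 CPM with nicotine. These groups were apart and the change was small (1.07-fold, log2 change 0.10, SE 0.0401, edgeR adjusted p = 0.261). Without replicate 21 the log2 change was 0.11 (edgeR adjusted p = 0.277). Without nicotine the male libraries stood at 250.6, 243.0, 238.0, 274.0 and 280.7 CPM, on both sides of the air range (log2 change 0.05, edgeR adjusted p = 0.421). Female changes were 0.01 and 0.07.

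In the negative limb no Period gene passed edgeR's threshold in a comparison with air, while DESeq2 called Per3 in males without nicotine. Per3 came nearest, in males without nicotine, at 25.9, 30.8, 26.8, 28.9 and 34.2 CPM against 21.6, 24.1 and 26.6 CPM in air (log2 change 0.28, SE 0.0759, edgeR adjusted p = 0.0117, DESeq2 adjusted p = 0.0056). The groups overlapped at 1 exposed library, no nicotine replicate 2, without which the adjusted p was 0.0062. Per1 is also an early response gene of neurons, and in males without nicotine 4 of its 5 libraries (125.6, 118.1, 117.3 and 106.7 CPM) lay above the highest air library (97.8 CPM) and replicate 2 stood at 77.1 CPM (log2 change 0.35, SE 0.133, edgeR adjusted p = 0.0605). For Per2, replicate 2 was again lowest, with 21.6 CPM and 33.9, 32.01, 37.1 and 42.3 CPM in the others against 19.1, 23.1 and 39.02 CPM in air (log2 change 0.36, SE 0.177, edgeR adjusted p = 0.146). Only replicate 7, at 42.3 CPM, lay above the highest air library.

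None of the other Period comparisons passed. In males with nicotine the log2 changes were -0.0083 for Per1, -0.0028 for Per2 and 0.18 for Per3 (edgeR adjusted p = 0.988, 0.999 and 0.260), and 0.054, 0.052 and 0.19 without replicate 21, so that the signs of Per1 and Per2 turned. Male Per3 had a 95% interval of 0.04 to 0.32 with nicotine (unadjusted p = 0.0240 in the edgeR fit). The female changes were 0.12, 0.05 and 0.01 with nicotine and -0.17, -0.04 and 0.09 without, with edgeR adjusted p between 0.410 and 0.945.

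Cry1 encodes a cryptochrome that represses the BMAL1 and CLOCK pair. In males with nicotine it stood at 18.4, 21.2 and 22.5 CPM against 22.7, 23.5 and 25.4 CPM in air, with no overlap and a change of -0.18 (SE 0.0515, edgeR adjusted p = 0.111, exact permutation p = 0.00216). Without replicate 21 its log2 change was -0.19 (edgeR adjusted p = 0.170). In males without nicotine, at 20.8, 23.5, 22.7, 21.2 and 21.5 CPM, it overlapped with air (log2 change -0.12, edgeR adjusted p = 0.118). In females its log2 change was -0.01 with and -0.12 without nicotine, with edgeR adjusted p = 0.939 and 0.350.

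**Figure D2:**
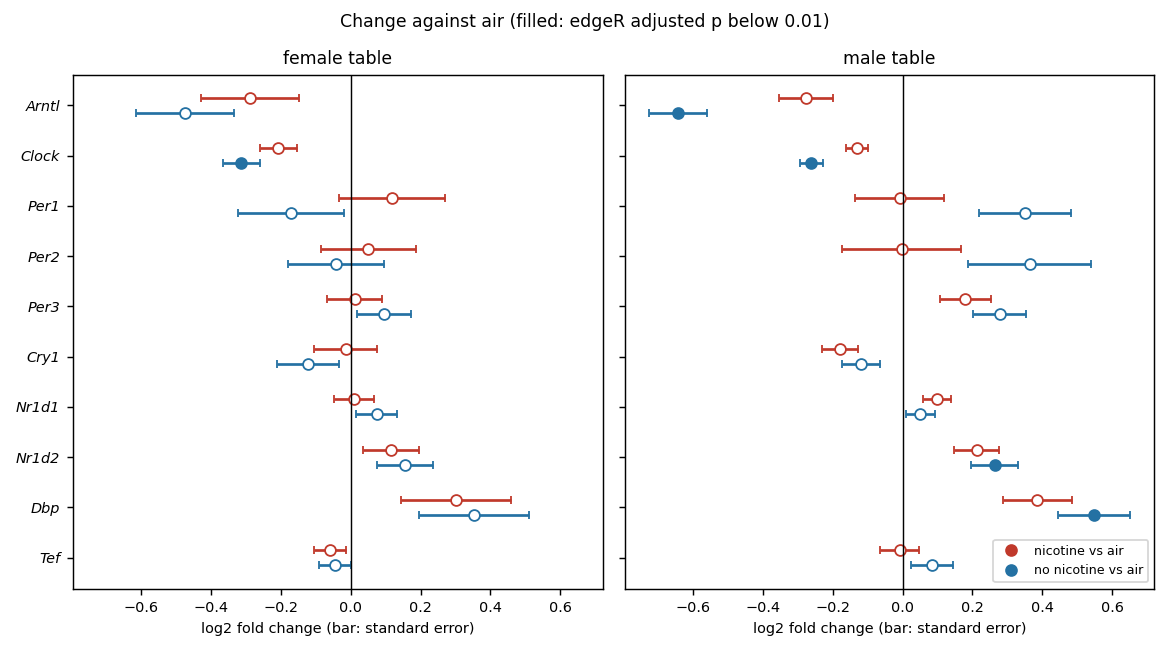
Log2 fold change against air (x axis, with the standard error as a bar) of each member in the female (left) and male (right) tables, with nicotine in red and without in blue, filled where the edgeR adjusted p was below 0.01. Filled points are Clock in the female panel and Arntl, Clock, Nr1d2 and Dbp in the male panel, all of them without nicotine.

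By the plain rule that groups do not overlap, female libraries were apart from air for 0 members with nicotine (6.67% of all genes tested) and 1 without (10.7%), and male libraries for 3 with nicotine (2.05%) and 4 without (12.4%). The 3 in males with nicotine were Cry1, Nr1d1 and Dbp, and none of them passed the adjusted test.

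The exposed groups were also set against each other, in the same fit of 3 groups. In females 0 members passed between the groups with and without nicotine (0% of all genes), 0 had an unadjusted p under 0.05 (8.36% of all genes), DESeq2 called 0 (0%), and 0 were apart (1.01%). In males 0 members passed either (0.248% of all genes), but 3 had an unadjusted p under 0.05 (20.1%), DESeq2 called 2 (2.98%) and 2 were apart (2.15%). Those 2 were Arntl and Clock, both higher with nicotine. Arntl was 1.29-fold higher (log2 difference 0.37, SE 0.0843, edgeR adjusted p = 0.0250, exact permutation p = 0.00433) and Clock 1.09-fold (log2 difference 0.13, SE 0.0340, edgeR adjusted p = 0.0405, exact permutation p = 0.00433). Without replicate 21 the differences were 0.35 and 0.13 (edgeR adjusted p = 0.0535 and 0.0651).

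Whether the change against air differed between the sexes was tested in a joint fit over 15105 genes. For nicotine 0 members passed (0% of all genes), 0 had an unadjusted p under 0.05 (6.47%) and DESeq2 called 0 (0.00662%). For no nicotine 0 passed (0%), 1 had an unadjusted p under 0.05 (4.91%) and DESeq2 called 0 (0%). That 1 was Per1, at -0.17 in females and 0.35 in males, a female minus male difference of -0.52 (SE 0.213, unadjusted p = 0.0215 and adjusted p = 0.945 in the edgeR fit). The difference was 0.18 for Arntl (SE 0.169), -0.05 for Clock (SE 0.0607), -0.19 for Dbp (SE 0.200) and -0.10 for Nr1d2 (SE 0.107), with edgeR adjusted p from 0.962 to 0.971. Without male nicotine replicate 21, 0 members passed edgeR's test of either difference. Members called in males alone are thus not shown to have changed differently in females.

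Arntl and Dbp, which stand at opposite phases, can be read together in each library as the ratio of their counts, a measure chosen after the values were seen and given as a description. In males the ratio of Dbp to Arntl counts ran from 1.101 through a median of 1.53 to 2.10 in air, from 2.16 through 2.31 to 3.16 with nicotine, and from 2.79 through 3.44 to 4.68 without. Neither exposed male group overlapped with air, as already held for Dbp alone in both groups and for Arntl alone without nicotine. No share over other gene pairs was computed, so this is not a further result. In females the ratio ran from 1.29 through 1.55 to 3.07 in air, from 1.67 through 2.02 to 4.62 with nicotine and from 2.04 through 2.88 to 4.76 without. All female groups overlapped, with air replicate 1 at the 3.07.

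**Figure D3:**
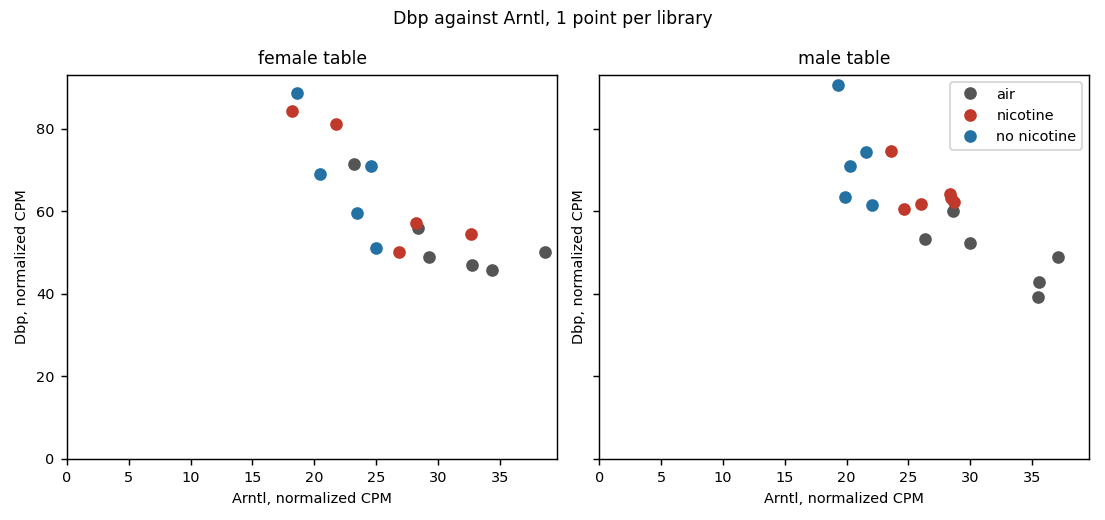
Normalized CPM of Dbp (y axis) against Arntl (x axis), 1 point per library, in the female (left) and male (right) tables, coloured by treatment, both axes from 0. In the male panel the air libraries run along the right and lower side, with Arntl at 26.3 to 37.1 and Dbp at 39.1 to 60.02, and the libraries without nicotine stand at the upper left, with Arntl at 19.3 to 22.02 and Dbp at 61.5 to 90.5.

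Some pairs of members also varied together between libraries of 1 group. Correlations of log2 CPM, taken as deviations from the group means over 16 female and 17 male libraries, are a description. Libraries of a sex share a run, and no share over other gene pairs was computed. Dbp and Nr1d2 moved together (Pearson's r 0.81 in females and 0.69 in males), as did Arntl and Clock (0.66 and 0.80), Per2 and Per3 (0.75 and 0.57) and Arntl and Cry1 (0.51 and 0.58). Against these, Dbp moved opposite to Arntl (-0.83 and -0.61) and to Clock (-0.62 and -0.70). Of the 45 pairs, 20 were positive and 14 negative in both tables, 4 exceeded 0.5 in both and 2 lay below -0.5 in both. The tables differed for Per3, which followed Dbp in females (0.79) and not in males (0.02). The median r over all 45 pairs was 0.05 in each table.

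**Figure D4:**
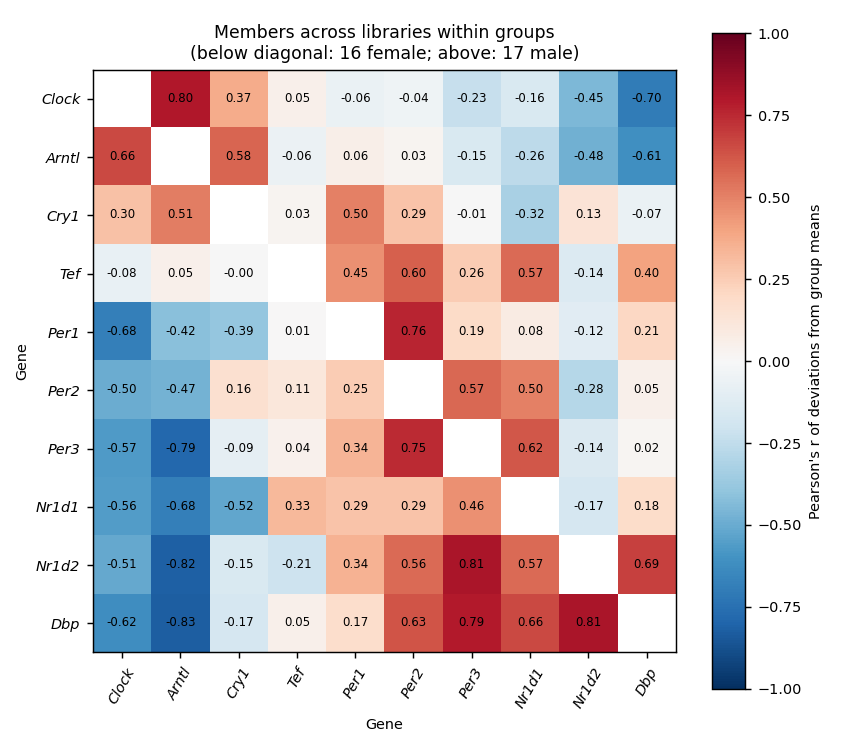
Pearson's r between members across libraries (colour and printed value), computed on deviations from group means, with 16 female libraries below the diagonal and 17 male libraries above it. Arntl and Clock form a positive block (0.66 and 0.80) that is negative against Dbp (-0.83 to -0.61) in both tables.

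Among 11323 genes with a mean of at least 5 CPM in both tables, the genes whose within-group pattern was most like that of Dbp, by Pearson's r averaged over the tables, were Atp5g3, Nr1d2, Fkbp5 and Arsg. Atp5g3, a subunit of mitochondrial ATP synthase, had r of 0.81 in females and 0.70 in males. Fkbp5, a glucocorticoid-responsive chaperone partner, had 0.69 and 0.76, and Arsg, a sulfatase, 0.57 and 0.85. At the other end stood Rbfox2, a splicing factor (-0.77 and -0.77), Dtx4 (-0.65 and -0.82) and Fam149a (-0.78 and -0.65). Arntl ranked 3 from this end and Clock 8, and Nr1d2 ranked 3 from the top with Dbp itself as 1, so that 3 of the 9 other members fell at the extremes of a list made over all genes.

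Beyond the 10 members, 24 further clock genes (relatives of the members, the ROR receptors, and enzymes that set protein turnover) were tested. Against air, 1 of the 24 passed with nicotine and 5 without in females, and 0 and 5 in males, beside the shares of all genes given above. In both comparisons of the exposed groups 0 passed. Against air 1 of the calls was higher and the rest were lower. The higher gene was Bhlhe41 (DEC2), a repressor of E-box genes, which rose in males without nicotine from 33.7 ± 2.43 to 46.1 ± 1.73 CPM (log2 change 0.45, SE 0.0511, edgeR adjusted p = 2.1e-05). Its log2 change in males with nicotine was 0.27 (edgeR adjusted p = 0.0334), and in females 0.30 with and 0.41 without nicotine (edgeR adjusted p = 0.0718 and 0.0106).

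The lower genes included receptors of the ROR family, which activate Arntl through the element they share with the REV-ERBs. Rorb fell without nicotine in females (from 72.6 ± 16.8 to 47.0 ± 7.36 CPM, log2 change -0.63, edgeR adjusted p = 0.0032) and in males (from 55.8 ± 6.51 to 43.8 ± 3.92 CPM, -0.35, adjusted p = 0.0062), and Rora in males without nicotine (-0.44, edgeR adjusted p = 0.0028). Rorb is also known as a marker of cortical neurons of the input layer. Prkaa2, the catalytic AMPK subunit that can mark cryptochromes for breakdown, fell in 3 comparisons, with log2 changes of -0.38 in females with nicotine, -0.50 in females without and -0.51 in males without (edgeR adjusted p = 0.0077, 0.00093 and 0.00039). Cry2, the other cryptochrome, fell in females without nicotine by 0.25 on the log2 scale (edgeR adjusted p = 0.0039), as did Npas2, the relative of Clock abundant in forebrain, by 0.52 (0.0077), and Csnk1e, the casein kinase that acts on Period proteins, by 0.21 (0.0038).

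Markers of cortical neurons and of myelin also changed against air. In bulk tissue fewer cells of a type and less RNA per cell cannot be told apart. Summed levels of 12 markers of cortical glutamatergic neurons were 3107 to 3915 CPM in female air libraries, 2108 to 2877 with nicotine and 1283 to 3027 without, and 2917 to 3475, 2134 to 2932 and 1130 to 2117 CPM in males. Of the 12, 1 was called with nicotine, higher, and 10 without nicotine in females (9 of them lower), and 0 and 9 in males (8 of them lower). The marker that was higher each time was Foxp2, which striatal neurons express too (log2 change 0.74 in females with nicotine, 0.78 in females without and 0.77 in males without, edgeR adjusted p = 0.0089, 0.0035 and 0.00077). None of the 12 was at 0 in any group. Summed levels of 10 striatal markers were 1133 to 2769, 2513 to 3441 and 2183 to 2757 CPM in the female groups in the same order, and 1580 to 2775, 1761 to 3529 and 1880 to 5059 CPM in the male groups. The 8 myelin markers summed to 8640 to 10463, 14161 to 18032 and 11622 to 17543 CPM in females and 9967 to 12282, 10207 to 15807 and 14559 to 24961 CPM in males, with 8 of 8 called higher without nicotine in each sex and with nicotine in females. Of the 10 striatal markers, 3 were called with nicotine (Ppp1r1b, Rgs9 and Tac1) and 1 without (Tac1) in females, and 0 and 3 (Gpr6, Rgs9 and Tac1) in males, all higher. For all these lists, the shares of all genes called were 4.29% with and 12.1% without nicotine in females, and 0 and 13.6% in males. The 1 of 10 striatal markers in females without nicotine is near that share and is not read as a result. Of 5 thalamic markers only Tcf7l2 was called, higher in females with nicotine (log2 change 0.94), in females without (1.09) and in males without (0.71). These are also the comparisons in which 8 of 8 myelin markers were called higher. Of the suprachiasmatic markers 4 could be tested, and Vip was called lower in females with nicotine (-0.73), in females without (-0.80) and in males without (-0.88), and Prok2 higher without nicotine in females (1.13) and males (1.14). Of the markers of astrocytes, microglia and endothelium, 0 were called against air in either sex. Drd1a, the dopamine receptor of striatal projection neurons, was at 1025 or more reads in every library. The values that bear on their part in the clock gene results follow.

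The cortical score, the mean log2 CPM of the 12 markers centred within each table, ran from 0.25 to 0.66 in female air libraries, from -0.53 to 0.29 with nicotine and from -0.84 to 0.16 without. Male scores ran from 0.30 to 0.44, from -0.29 to 0.22 and from -0.97 to 0.02, with no overlap between air and either exposed group. Within groups, Pearson's r of the score over 16 female libraries was 0.64 for Arntl, 0.61 for Clock, -0.52 for Dbp and -0.60 for Nr1d2, and over 17 male libraries 0.02, -0.02, 0.13 and 0.14. Per1, Per2 and Per3 had r of -0.43, -0.61 and -0.66 in females and 0.05, 0.32 and 0.26 in males. For Nr1d1 the r was -0.07 in females and 0.62 in males, for Tef 0.33 and 0.16, and for Cry1 0.06 and 0.10. With the score as a covariate, 0 members passed edgeR's test in any comparison. The share of all genes passing in that fit was not computed, so the 0 is not read as a result about the members. In males without nicotine the fitted log2 changes were -0.63 for Arntl, -0.26 for Clock, 0.65 for Dbp and 0.32 for Nr1d2, with edgeR adjusted p of 0.132, 0.113, 0.163 and 0.240. In females without nicotine they were 0.02 for Arntl, -0.15 for Clock and -0.12 for Dbp. The score did not overlap between air and no nicotine in either sex, or between air and nicotine in males, so score and treatment cannot be told apart in these 3 comparisons.

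**Figure D5:**
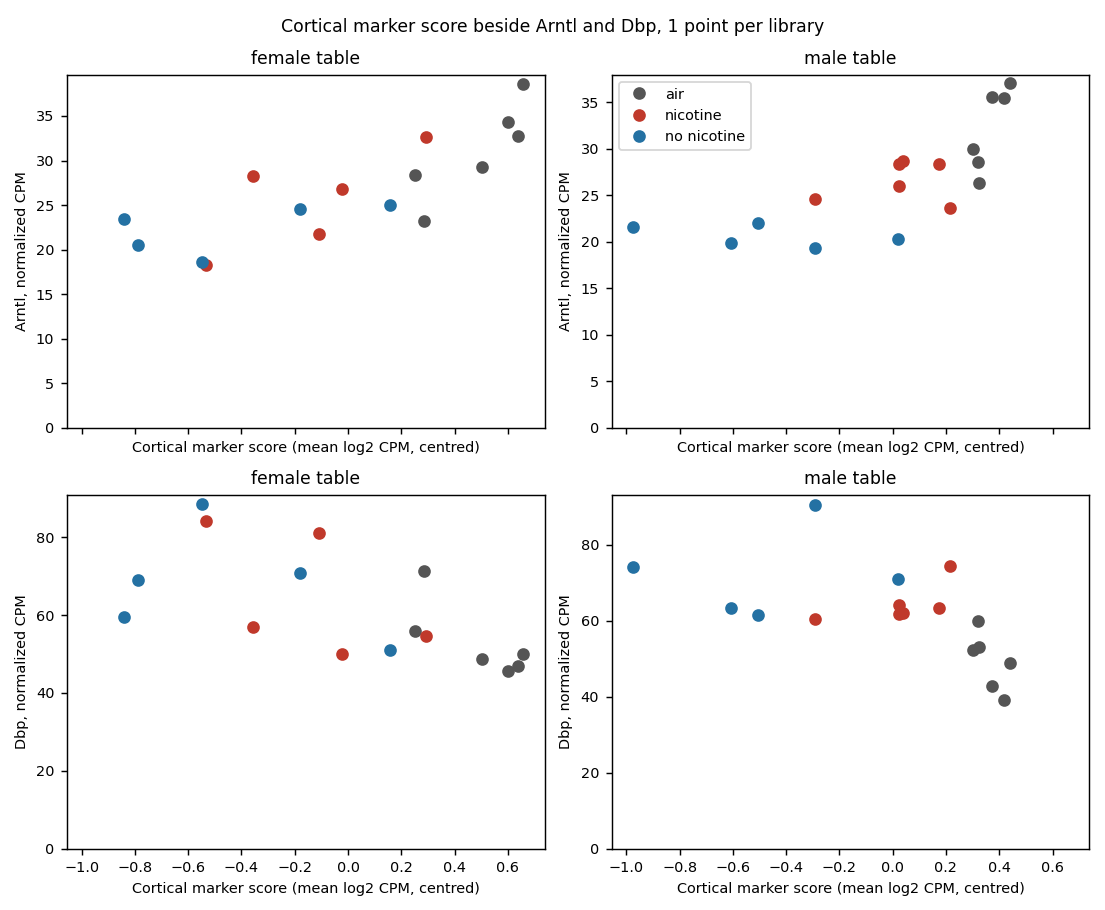
Normalized CPM of Arntl (upper panels) and Dbp (lower panels) against the cortical marker score (mean log2 CPM of 12 markers, centred within each table), 1 point per library, female left and male right, coloured by treatment, y axes from 0. Air libraries sit at the right (0.25 to 0.66 in females, 0.30 to 0.44 in males), and Arntl in males without nicotine stays between 19.3 and 22.02 CPM over scores from -0.97 to 0.02.

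Other processes that move clock transcripts were read from lists of immediate early genes and of glucocorticoid-responsive genes. Of 11 immediate early genes, which neuronal activity and handling induce, 0 passed in either sex with nicotine, 2 fell in females without nicotine (Egr1 by 0.65 and Egr4 by 0.72 on the log2 scale, edgeR adjusted p = 0.0058 and 0.0064, where 12.1% of all genes were called) and 0 passed in males without nicotine, with list medians on the log2 scale of 0.04, -0.46, -0.40 and -0.21 in females with and without and males with and without nicotine. Of 8 glucocorticoid-responsive genes, which include Fkbp5, 1 rose in males without nicotine (Tsc22d3, log2 change 0.72, edgeR adjusted p = 0.00077, where 13.6% of all genes were called) and 0 passed in the other 3 comparisons. Their summed level ran from 246.9 to 299.9 CPM in male air libraries and from 255 to 398 CPM in males without nicotine. Counts of 1 of 8 and 2 of 11 are not read as results about these lists beside those shares. The part of these lists in the clock gene results was not tested.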

How the data were processed

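The authors deposited raw read counts per gene, 1 table per sex. They had aligned single reads to the transcriptome of mm9 with Bowtie, removed duplicates with SAMtools and used HTSeq to count. The deposited tables of normalized values were not used. Whether reads were counted by strand is not given in the sources used here. Of 34 count columns, 33 could be matched by name to a sample of the labels, and the remaining 1 was left out. Genes whose CPM summed to 5 over a sex were tested (15158 in females, 15293 in males).

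Counts were fitted with edgeR 4.0.16 (TMM, quasi-likelihood test, 3 groups of a sex in 1 fit, no covariates, Benjamini-Hochberg adjusted p below 0.01), after a trial on simulated data. A joint fit of all 6 groups tested differences between the sexes. For members, an exact permutation test (two-sided, on log2 CPM with a prior count of 1) was added. P-values measure the spread between libraries of 1 group. No 2 libraries of a group agreed within counting noise (chi-square per degree of freedom of 4.46 to 30.9 over 75 pairs). Same-numbered female libraries did not deviate together, so the numbers were not taken as pairs. The members, the 24 further clock genes, the marker lists and the genes named were chosen with earlier results of these data known: all members, the further clock genes past the threshold (up to 8, of which 1 is not reported here), and the 3 genes most and 3 least correlated with Dbp. Positions and exon lengths are from the mm9 annotation, promoter sequences from RefSeq. Alternatives were DESeq2 1.42.0, other scalings and filters, fits of 2 groups, a cortical marker covariate, a replicate block and leaving out each library. Software was Python 3.11.15 (scipy 1.17.1, pandas 2.3.3, matplotlib 3.10.9) and R 4.3.3.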

Additional observations from a re-analysis of the deposited data

Results flagged for a closer look

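Single libraries stood far from the rest of their group in 3 of the 60 sets of member and group examined, by Dixon's ratio of gap to range, where chance alone gives about 1 in 20, that is 3. Cry1 was 18.7 CPM in female nicotine replicate 6, below 23.6 to 25.4 CPM in the other 4 libraries of that group. Dbp was 74.5 CPM in male nicotine replicate 22, above 60.5 to 64.1 CPM in the others, and without that library the log2 change of Dbp against air was 0.34 (edgeR adjusted p = 0.149) in place of 0.39. Tef was 552.8 CPM in female no nicotine replicate 1, above 500.8 to 512.6 CPM in the others.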

How the results depend on the processing

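DESeq2 called 1 member (Clock) in females with nicotine, 2 (Arntl and Clock) in females without, 1 (Clock) in males with nicotine, 5 (Per3 beside the 4 edgeR calls) in males without and 2 (Arntl and Clock) between the exposed male groups. With the cortical marker score as a covariate the count fell to 0 in females and in males without nicotine, in a fit whose share over all genes was not computed. Leaving out single libraries, the count was 0 to 1 in females with nicotine, 1 to 2 in females without, 3 to 4 in males without (Nr1d2 being the call lost) and 0 in the other comparisons. Of the single log2 changes under an alternative, 1468 kept direction and side of the threshold, 12 came to pass it, 14 ceased to and 54 turned sign. The cause was not tested.

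Sign changes under the cortical covariate were, in females with nicotine, Arntl 0.043, Per1 -0.14, Per2 -0.27, Per3 -0.17, Cry1 0.0057, Nr1d1 -0.0072, Nr1d2 -0.064 and Dbp -0.026. In females without nicotine they were Arntl 0.023, Per3 -0.17, Nr1d2 -0.10, Dbp -0.12 and Tef 0.020, and between the exposed female groups Nr1d2 0.041 and Dbp 0.091. In males they were Per2 0.15 and Tef 0.015 with nicotine and Nr1d1 -0.040 between the exposed groups. Upper quartile scaling gave Cry1 0.0064 in females and Per2 0.0013 in males, both with nicotine.

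Leaving out single libraries gave ranges across 0 for changes that had not passed. In females with nicotine these were Per2 -0.017 to 0.16, Per3 -0.039 to 0.071, Cry1 -0.065 to 0.059 and Nr1d1 -0.016 to 0.057, and without nicotine Per2 -0.12 to 0.064. Between the exposed female groups they were Nr1d2 -0.095 to 0.013, Dbp -0.15 to 0.064 and Tef -0.033 to 0.018, and in males with nicotine Per1 -0.082 to 0.054, Per2 -0.077 to 0.16 and Tef -0.025 to 0.017.

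Of 14 same-numbered female pairs, 4 had a correlation of deviations above 0.1 (range -0.27 to 0.27). The labels do not say what a shared number stands for, and these correlations do not show whether it marks a batch or day. With that number as a block, 1 member (Clock) passed in females without nicotine and 0 with nicotine, and the log2 change of Cry1 with nicotine was 0.018. The male groups share no numbers, so no block could be fitted there.

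Groups of 5 and 6 libraries, all at about 1 month of age and collected at an unknown hour, limit what can be read.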
